A study of Arabidopsis thaliana with 4 samples.

Results

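The plant defensin genes of the PDF1 and PDF2 classes were followed in Arabidopsis thaliana seedlings that overexpress ERF4, a transcriptional repressor. The 10 genes were listed by locus: PDF1.1 (AT1G75830), PDF1.2a (AT5G44420), PDF1.2b (AT2G26020), PDF1.2c (AT5G44430), PDF1.3 (AT2G26010), PDF1.4 (AT1G19610), PDF2.1 (AT2G02120), PDF2.2 (AT2G02100), PDF2.3 (AT2G02130) and PDF2.5 (AT5G63660). All 10 were on the array, with 1 probe and 1 spot each, among 25665 genes with an Arabidopsis locus. Seedlings of the Columbia-0 ecotype, 14 days old and without treatment, were compared between 2 genotypes. All were grown in 16 h light and 8 h dark at 23 °C with 0.5% sucrose. Seedlings labelled 35S:AtERF4-HA carried ERF4 with an HA tag behind the constitutive 35S promoter. Controls, labelled 35S:NLS-GFP-HA, carried a green fluorescent protein with a nuclear localization signal and the same tag behind the same promoter. Each of 4 arrays held both genotypes of 1 biological replicate in its 2 dye channels, from plants that shared an agar plate. Dyes were swapped: Cy3 marked the AtERF4-HA sample on arrays 1 and 2, and Cy5 marked it on arrays 3 and 4. No replicate was run in both orientations, so a dye effect and a difference between these pairs of replicates cannot be told apart. The labels do not state how many independent transgenic lines were used.

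Plant defensins are small secreted peptides folded around disulfide bridges, and many of them inhibit the growth of fungi. PDF1.2 is the standard marker of defence driven jointly by ethylene and jasmonate. Its activators ERF1 and ORA59 bind the GCC box, a short promoter element. ERF4 belongs to the class II ethylene response factors, which bind the same element but carry an EAR motif that recruits corepressors. The PDF2 genes are in large part expressed without induction.

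Levels were read from spot brightness, as the log2 ratio of the AtERF4-HA channel over the control channel after background correction and loess normalization. Gene probes had array medians between 122 and 140 in the green channel and between 166 and 222 in the red one, against a local background of 58 to 60. The share of gene spots flagged as well above background lay between 58.0% and 62.4% per channel. ERF4 itself (AT3G15210) had log2 ratios of 1.08, 0.87, 0.89 and 1.04 on arrays 1 to 4, which were above 0 on every array. Its fitted ratio was 0.97 ± 0.07 (SE, n = 4 arrays, 1.96-fold higher, limma adjusted p = 0.000154). Where its probe lies in the gene was not used, so transgene and endogenous transcript were not separated. Each direction here is that of the dye labels. The authors' deposited value table runs the other way by the same labels, with natural log values for ERF4 of -0.87, -0.71, -0.75 and -0.85, while the titles put AtERF4-HA over control. If the dye labels were exchanged, every sign here would be reversed, and ERF4 would read lower on every array in the seedlings that overexpress it. Replicates were separate plates. The p-values rest on the spread between plates left after a dye term, moderated in limma by the variances of all genes tested.

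The tested defensin genes differed by class. Of the 9 members that could be tested, 5 fell, 1 rose and 3 did not pass a Benjamini-Hochberg adjusted p of 0.05 in limma. All 5 that fell were PDF1 genes, and the gene that rose was PDF2.1. Across all 19476 genes tested, 46.7% passed the same threshold, 25.3% as lower and 21.4% as higher. Falls of 2-fold or more were made by 4.44% of all genes and by the same 5 members. The median fitted log2 ratio was -2.80 over the 5 tested PDF1 genes, 0.030 over the 4 PDF2 genes and -0.011 over all genes tested. PDF1.2a, PDF1.2b, PDF1.2c and PDF1.3 are close copies that probes may not separate, so the PDF1 counts and median are not over independent readings. PDF1.1 and PDF1.5, also of the PDF1 class, were too dim to be tested and did not lie below 0 on all 4 arrays. PDF1.2a and PDF1.2b entered the test through the control channel alone, where they were brighter, so a lower value was built into their entry. Among the 7 members well above background in both channels on all arrays, 3 fell and 1 rose. The 5 PDF1 genes lay below 0 on all 4 arrays, as did 29.4% of all genes tested. These counts rest on a background model that left out spots of uneven local background, a choice made after the data were seen. With those spots kept, 3 PDF1 genes fell and PDF2.1 rose, beside 25.6% of all genes called. In RNA of seedlings, fewer cells expressing a gene and less transcript per cell cannot be told apart.

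**Figure D1:**
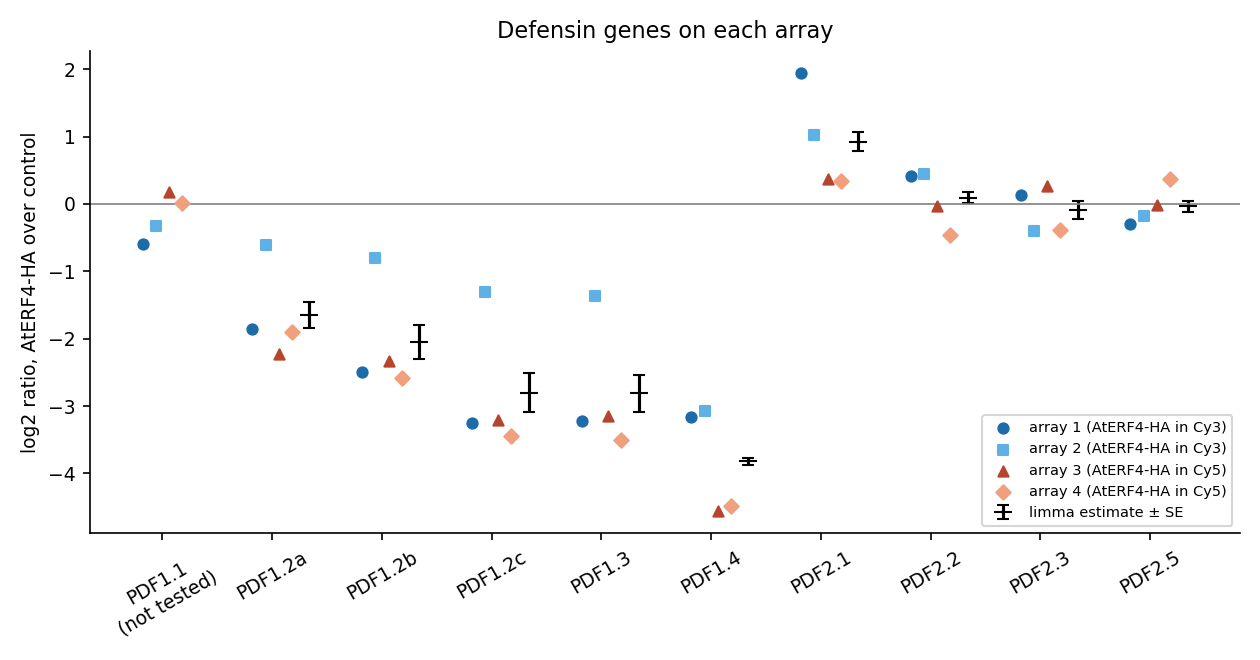
Log2 ratio of AtERF4-HA over control (vertical axis) for the 10 defensin genes on each of the 4 arrays, by dye orientation, with the limma estimate and its SE in black. The 5 tested PDF1 genes lie below 0 on all 4 arrays, PDF2.1 lies above 0 on all 4, and the other PDF2 genes lie on both sides.

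PDF1.4, a PDF1-class defensin outside the PDF1.2 copies, showed the largest fall of the family. In control channels its median spot signals were 6550, 2187, 1766 and 1507 on arrays 1 to 4. In the AtERF4-HA channels they were 286.5, 156, 133 and 114, over local backgrounds of 61 to 63. Every control spot was far brighter than every AtERF4-HA spot, but the share of all genes with such a separation was not counted. Its log2 ratios were -3.17, -3.07, -4.56 and -4.49. The fitted ratio was -3.82 ± 0.06 (SE, n = 4), a 14.2-fold fall with a limma adjusted p of 3.23e-06. It ranked 19 from the lowest ratio among the 19476 genes tested. The small SE is taken after the dye term, and the SD over the 4 arrays was 0.81. The mean ratio was -3.12 on arrays 1 and 2 and -4.52 on arrays 3 and 4, a dye term of -0.70. The size of the fall also moved with the processing. The fitted ratio was -4.54 with processed signals, -4.58 with background-subtracted signals and -3.04 with uneven-background spots kept in the background model.

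The genes PDF1.2a, PDF1.2b, PDF1.2c and PDF1.3 encode closely similar peptides and lie as tandem pairs, PDF1.2a beside PDF1.2c and PDF1.2b beside PDF1.3. Probes may not separate such copies, so their ratios are not independent readings. All of them fell. PDF1.2c, whose control signals were 2456, 498, 715 and 881, read 118, 132, 123 and 134 in the AtERF4-HA channels. PDF1.3 gave control signals of 2319, 501, 661 and 852.5, against 115.5, 133, 118 and 119.5. In both genes the raw AtERF4-HA signals ran from 115.5 to 134 over local backgrounds of 55 to 61.5, while the controls ran from 498 to 2456. These raw signals mix both dyes. On normalized log2 intensity the AtERF4-HA channel ran from 6.65 to 7.39 for PDF1.2c and from 6.59 to 7.36 for PDF1.3. Both were higher on arrays 1 and 2 than on arrays 3 and 4. The log2 ratios of PDF1.2c were -3.25, -1.30, -3.21 and -3.44, and its fitted ratio was -2.80 ± 0.29 (SE, n = 4, 6.97-fold lower, limma adjusted p = 0.00067). PDF1.3 had ratios of -3.22, -1.36, -3.15 and -3.50 and a fitted ratio of -2.81 ± 0.28 (7.01-fold lower, limma adjusted p = 0.00059). On each array the ratios of PDF1.2c and PDF1.3 differed by 0.06 or less, although these genes belong to different tandem pairs.

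PDF1.2a, the copy most used as a marker, read 543, 137.5, 300.5 and 331 in the control channels and 83, 78, 91 and 136 in the AtERF4-HA channels. The lowest control spot, on array 2, was close to the highest AtERF4-HA spot, on array 4. Its log2 ratios were -1.85, -0.60, -2.23 and -1.90. The fitted ratio was -1.65 ± 0.19 (SE, n = 4, 3.13-fold lower, limma adjusted p = 0.00114). PDF1.2b read 885, 203, 311 and 360 in controls against 81, 86, 86 and 87.5. With ratios of -2.50, -0.81, -2.33 and -2.58, it had a fitted value of -2.06 ± 0.25 (4.16-fold lower, limma adjusted p = 0.00133). Of the 4 AtERF4-HA channels, 2 were well above background for PDF1.2a and 3 for PDF1.2b. With the scanner software's processed signals the 4 copies came to -3.38 (PDF1.2a), -3.78 (PDF1.2b), -3.71 (PDF1.2c) and -3.71 (PDF1.3).

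Array 2 stood apart for the 4 copies. Their mean log2 ratio there was -1.02, against -2.70, -2.73 and -2.86 on arrays 1, 3 and 4. On normalized log2 intensity, the PDF1.2c control channel was at 8.70 on array 2 and at 9.86 to 10.54 on the other arrays. In the AtERF4-HA channel PDF1.2c was at 7.39 on array 2, against 6.65 to 7.29 elsewhere. PDF1.4 was also nearest to 0 on array 2, at -3.07, but array 1 was close to it at -3.17, and arrays 3 and 4 were at -4.56 and -4.49. Its control channel was likewise lowest on array 2, at 10.74 against 11.04 to 11.87 on the others. Without array 2 the copies came to -1.96 (PDF1.2a), -2.48 (PDF1.2b), -3.29 (PDF1.2c) and -3.27 (PDF1.3), and all of them passed.

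**Figure D2:**
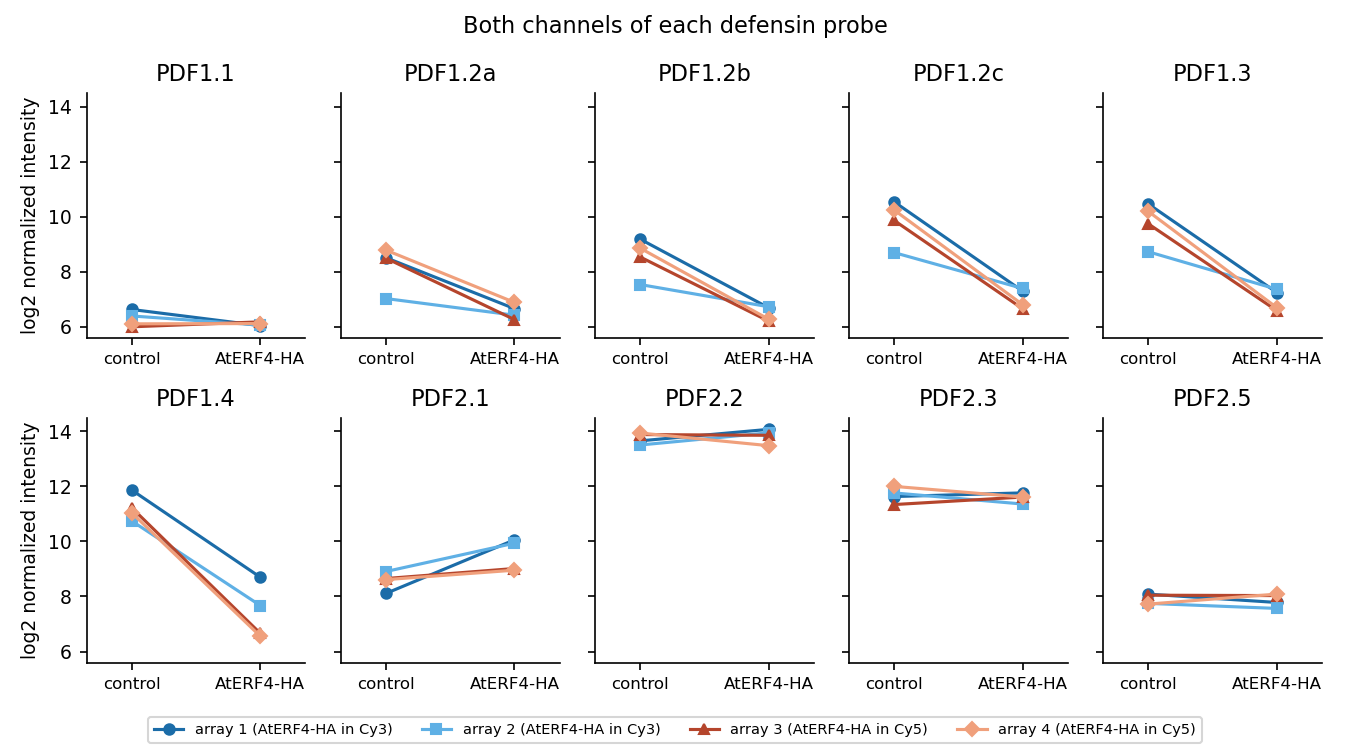
Normalized log2 intensity (vertical axis, after loess and quantile scaling of mean intensities) of each defensin probe in the control and AtERF4-HA channels, with a line joining both channels of an array. Lines fall steeply for PDF1.4 and the 4 copies, with array 2 starting lowest for the copies, and are nearly level for PDF2.2, PDF2.3 and PDF2.5. Heights of different probes are not comparable.

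PDF1.1, a defensin best known from seeds, was near the limit of detection. Its control signals were 104, 84.5, 79.5 and 69 over backgrounds of 55 to 64, and its AtERF4-HA signals were 68, 71, 65.5 and 62. It was well above background on 2 of 4 arrays in the control channel, arrays 1 and 2, and on none in the AtERF4-HA channel. It therefore did not enter the test. Its log2 ratios of -0.59, -0.33, 0.18 and 0.01 had no common sign. On each array its AtERF4-HA value was raised, where lower, to the lowest signal counted as well above background in that channel. Against these values its control mean over all 4 arrays was 1.08-fold higher. That value is not a firm lower bound, since only 2 of the 4 control values were well above background, and it carries little information.

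PDF2.1 was the member that rose. It read 744, 695, 701 and 619 in the AtERF4-HA channels and 449, 606, 311 and 286 in the control channels. Every AtERF4-HA spot was brighter than every control spot, narrowly so at 619 against 606. The share of all genes with such a separation was not counted. The log2 ratios were 1.95, 1.03, 0.36 and 0.34, all above 0, as in 25.3% of all genes tested. The fitted ratio was 0.92 ± 0.14 (SE, n = 4, 1.89-fold higher, limma adjusted p = 0.00329). Its size differed by dye orientation, which cannot be told apart from the pair of replicates. The mean was 1.49 where AtERF4-HA carried Cy3 and 0.35 where it carried Cy5, a dye term of -0.57. Without a dye term in the fit it still passed.

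PDF2.2, which lies in the same genomic cluster as PDF2.1, read 10651, 10254, 22155 and 16797 in the AtERF4-HA channels and 23724, 16713, 9682 and 10269 in the control channels. The raw signals followed the dye, with the Cy5 channel the brighter one on every array. It had log2 ratios of 0.42, 0.44, -0.03 and -0.46. Arrays 1 and 2 were higher and arrays 3 and 4 lower, the order of the dye orientation. Its fitted ratio of 0.09 ± 0.08 did not pass (limma adjusted p = 0.388), with a 95% interval of -0.11 to 0.30. PDF2.3, a defensin known to block potassium channels, was at a normalized log2 intensity of 11.59 ± 0.17 (SD, n = 4) in AtERF4-HA and 11.68 ± 0.27 in control channels. It had ratios of 0.13, -0.40, 0.27 and -0.39 and a fitted ratio of -0.10 ± 0.13 (limma adjusted p = 0.586, interval -0.42 to 0.23). PDF2.5, which binds cadmium, was at 7.87 ± 0.24 and 7.90 ± 0.19 on the same scale. It had ratios of -0.30, -0.18, -0.01 and 0.36 and a fitted ratio of -0.03 ± 0.08 (limma adjusted p = 0.746, interval -0.23 to 0.16). In each of these 3 genes signs differed between arrays, and the intervals leave out a change of 2-fold in either direction. PDF2.1, PDF2.2 and PDF2.3 form a genomic cluster, in which PDF2.1 alone passed the test. A test of the difference between the cluster's genes was not made.

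Among further defensin genes on the array, PDF2.4 (AT1G61070) was tested and did not pass, at 0.05 ± 0.07 (limma adjusted p = 0.642). PDF1.5 (AT1G55010) was well above background on 3 of 4 arrays in the AtERF4-HA channel and on 1 of 4 in the control channel. Its log2 ratios of 0.29, 0.88, 0.83 and 0.13 were above 0, in contrast to the tested PDF1 members, and it was too dim to be tested. PDF2.6, PDF3.1 and PDF3.2 were well above background on no array.

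Among activators of PDF1.2, both falls and unpassed tests were found. Of 16 tested members of an 18-gene list, 7 fell, 1 rose and 8 did not pass, beside the 46.7% of all genes that passed. ERF1 (AT3G23240), which activates PDF1.2 downstream of ethylene and jasmonate, had ratios of -2.51, -2.86, -2.83 and -2.32. It fell with a fitted ratio of -2.63 ± 0.10 (6.19-fold, limma adjusted p = 3.18e-05), and unlike the copies it was not nearest to 0 on array 2. The activator ERF2 (AT5G47220) fell, at -1.48 ± 0.13, ERF1A (AT4G17500) at -1.16 ± 0.08, and ERF104 (AT5G61600), a target of the kinase MPK6, at -1.12 ± 0.07. WRKY33 (AT2G38470), a regulator of defence against necrotrophic fungi, fell, at -0.94 ± 0.11. ORA59 (AT1G06160), the other main activator of PDF1.2, did not pass, with ratios of -0.33, 0.02, -0.49 and 0.28 and a fitted value of -0.13 ± 0.13 (limma adjusted p = 0.452). Without array 4 ORA59 came to -0.32 and passed (limma adjusted p = 0.0341). ERF5 (AT5G47230) rose by 0.31 ± 0.06.

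Upstream components had values closer to 0. The ethylene signalling factors EIN3, EIL1 and EIN2 did not pass, at -0.18 ± 0.08, -0.10 ± 0.06 and -0.07 ± 0.06, nor did the jasmonate receptor gene COI1, at -0.06 ± 0.06. The mediator subunit gene MED25 and TGA5, a factor through which PDF1.2 responds, fell, at -0.24 ± 0.07 and -0.23 ± 0.06, calls that were lost in 8 and 6 of 16 alternative settings. Leaving out array 1, 3 or 4 ended the call of MED25, and leaving out array 1, 2 or 4 that of TGA5. EIN3 passed without array 2, at -0.28 (limma adjusted p = 0.0497).

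Of 14 repressors and antagonists of PDF1.2, all tested, 9 fell, 2 rose and 3 did not pass, where 25.3% of all genes were called lower and 21.4% higher. GRX480 (AT1G28480), a glutaredoxin that suppresses PDF1.2 in response to salicylate, had ratios of -2.96, -2.76, -2.75 and -3.03 and fell with a fitted ratio of -2.87 ± 0.07 (7.33-fold, limma adjusted p = 1.15e-05). JAZ1 and JAZ10, repressors that jasmonate removes, fell, at -1.23 ± 0.15 and -1.03 ± 0.19. On array 2 JAZ10 was at -0.03, against -1.22, -1.69 and -1.17 on arrays 1, 3 and 4. MYC2, whose branch of the jasmonate response opposes PDF1.2, fell, at -0.44 ± 0.08, and the corepressor gene TPL at -0.67 ± 0.09. WRKY70 (AT3G56400), which favours salicylate over jasmonate defence, rose by 0.94 ± 0.16, and JAZ3 by 0.33 ± 0.10. The JAZ3 call was lost without array 1, 2 or 4 and that of JAZ6, at -0.32 ± 0.09, without array 1 or 3. JAZ2 fell, at -0.52 ± 0.08. WRKY50 and WRKY51, which take part in salicylate repression of jasmonate signalling, fell, at -0.75 ± 0.16 and -0.83 ± 0.08, and both entered the test through the control channel alone. With uneven-background spots kept in the background model, JAZ10 (-0.53, limma adjusted p = 0.0882), WRKY50 (-0.47, adjusted p = 0.163) and WRKY51 (-0.52, adjusted p = 0.1) no longer passed, nor did JAZ3 and JAZ6. NPR1, the histone deacetylase gene HDA6 and NINJA, an adaptor between JAZ proteins and TPL, did not pass.

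Of 7 tested genes among other defence outputs, 2 rose, 2 fell and 3 did not pass, a share called near the 46.7% of all genes. The basic chitinase gene CHI-B (AT3G12500), induced like PDF1.2 by ethylene and jasmonate, rose by 1.28 ± 0.17, with ratios of 0.91, 1.08, 1.00 and 2.14. PR4 (AT3G04720), another gene of that branch, did not pass, with ratios of -0.65, -0.15, -0.92 and 0.41 (limma adjusted p = 0.248). Without array 4 PR4 came to -0.66 and passed (limma adjusted p = 0.004). PR2 did not pass, at -0.73 ± 0.26 (limma adjusted p = 0.0638), but did without array 2 (-0.99) or array 4 (-1.09). VSP2, at -0.21 ± 0.12, passed only without array 2 (-0.39). PR5 and the MYC-branch gene VSP1 fell, at -0.56 ± 0.06 and -0.69 ± 0.18, and the thionin gene THI2.2 rose by 0.38 ± 0.06. PR5 had ratios of -0.91, -1.01, -0.15 and -0.17 and THI2.2 of -0.08, -0.09, 0.97 and 0.73, both split by dye orientation. The THI2.2 call was lost without the dye term. The VSP1 call was lost in 5 of 16 alternative settings. Among these were the fit without array 1 (-0.52, limma adjusted p = 0.0954), processed signals (adjusted p = 0.058) and the authors' value table (adjusted p = 0.0806). PR1 was well above background on no array.

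**Figure D3:**
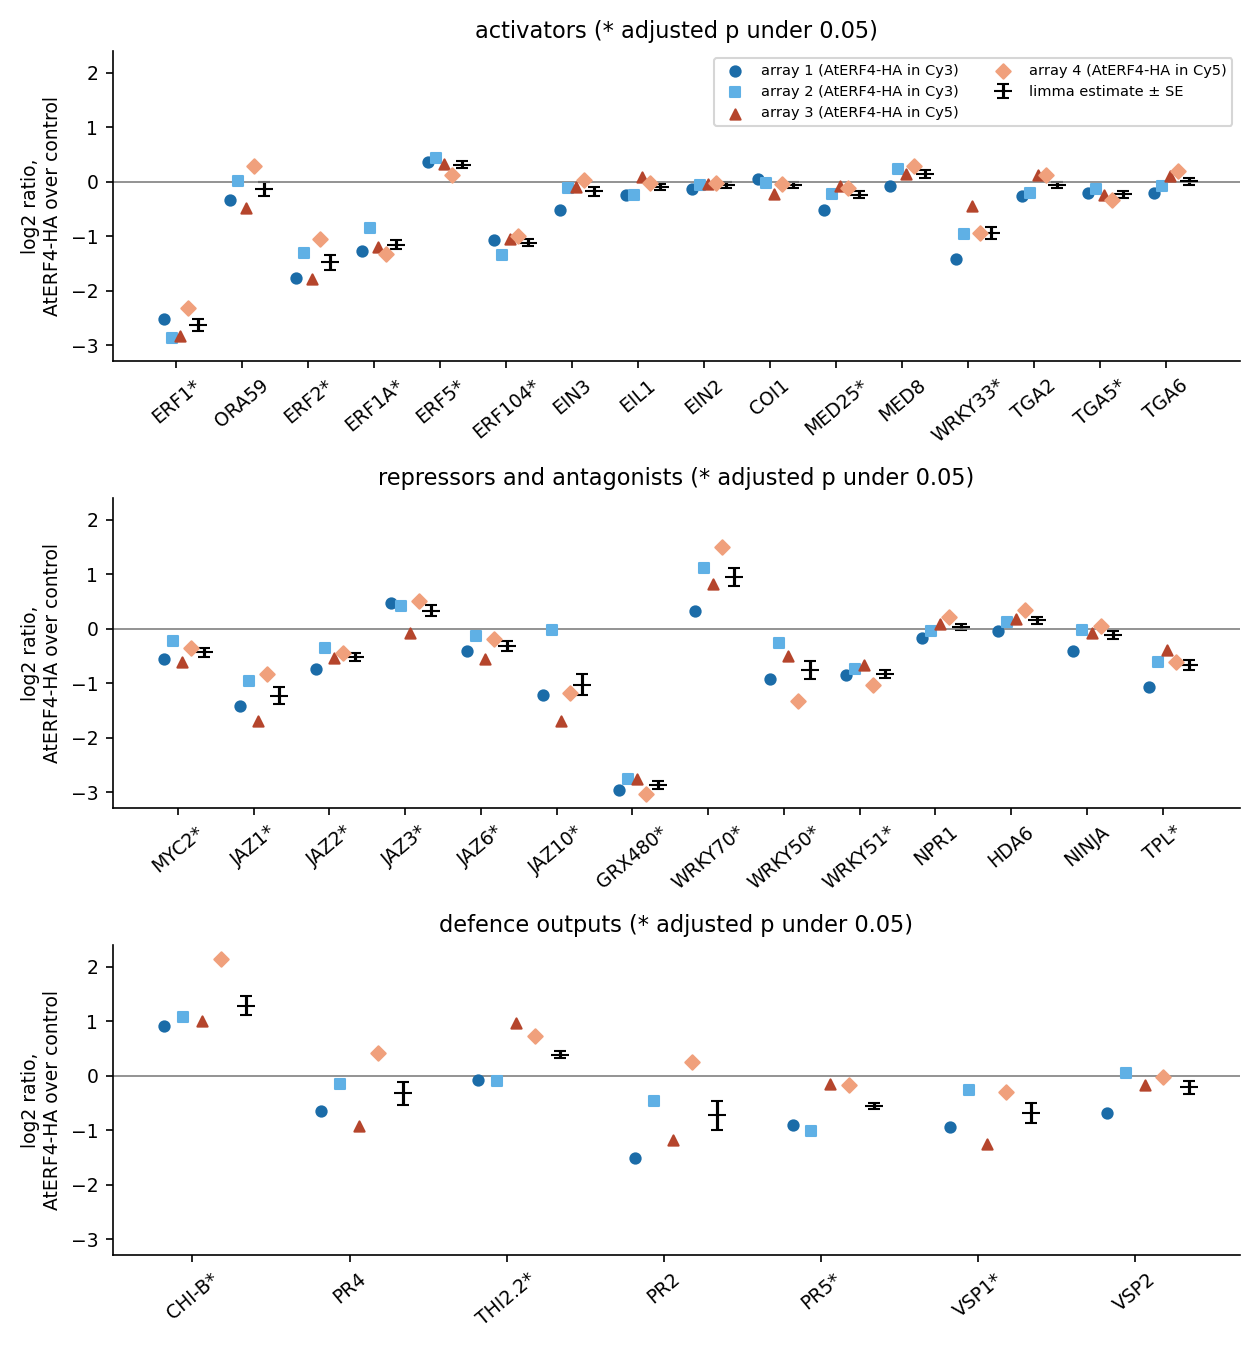
Log2 ratio of AtERF4-HA over control (vertical axis) on each array for the tested activators, repressors and antagonists, and defence outputs around PDF1.2, with the limma estimate and SE in black and an asterisk on genes past the threshold. ERF1 lies between -2.86 and -2.32, GRX480 between -3.03 and -2.75, and CHI-B between 0.91 and 2.14.

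Genes beside the defensins were named from RefSeq (assembly TAIR10.1), by which 25 protein-coding genes flanked or interrupted the 6 defensin loci, and 21 of them were tested. Of these 2 fell, 8 rose and 11 did not pass, beside the 46.7% of all genes that passed. Beside the pair PDF1.2a and PDF1.2c, AT5G44400 rose by 0.98 ± 0.12 and AT5G44410 by 0.30 ± 0.06, while AT5G44440 fell, at -0.27 ± 0.06, and AT5G44450 did not pass. The 3 tested genes beside PDF1.2b and PDF1.3 did not pass, with values from -0.11 to 0.17. Beside PDF1.4, 3 of 4 rose, by 0.23 to 0.49.

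The genes most like the 4 copies were sought by the Euclidean distance of the 4 log2 ratios to the copies' mean, a measure over 4 arrays only. The nearest outside the family were XYL4 (AT5G64570), a beta-xylosidase gene, at a distance of 0.55 and XTR6 (AT4G25810), a xyloglucan endotransglucosylase gene also called XTH23, at 0.65. AT4G04460 followed at 0.75, then ACS7 (AT4G26200), an ethylene synthesis enzyme gene, at 0.77 and AT2G28120 at 0.79. Being chosen by distance to a profile nearest to 0 on array 2, they share that feature by selection. ACS7 entered the test through the control channel alone. XYL4 had ratios of -2.39, -1.26, -2.56 and -2.51. The distance of PDF1.2a itself from the mean of the copies was 1.44 and that of PDF1.2b was 0.57.

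Markers of shoot and root were present in both genotypes: 5 of 5 shoot and 6 of 9 root markers were well above background on all arrays in both channels. Of 6 tested root markers, 6 rose (median 0.48), and 2 of 4 tested shoot markers rose (median 0.46), where 21.4% of all genes were called higher. The root markers too dim to be tested did not share this rise, with mean log2 ratios of 0.002 (LRX1), -0.005 (PLT1) and -0.39 (WOX5). Summed raw signals of the root list ran from 6294 to 19020 in the AtERF4-HA channels and from 5638 to 12331 in the controls, a range that also holds the dye difference. None of 5 seed markers was well above background throughout a channel. Of 4 flower markers, AG and AP1 were well above background on no array and AP3 on 1. PI (AT5G20240), a petal and stamen identity gene, read 2251, 872, 854 and 958.5 in controls and 146.5, 147, 232 and 297 in AtERF4-HA seedlings, and fell, at -2.47 ± 0.14. The summed flower list ran from 1081 to 2506 in controls and from 356 to 510 in AtERF4-HA seedlings, a difference carried by PI, since AG, AP1 and AP3 read 60.5 to 98 in controls and 64 to 79 in AtERF4-HA seedlings. The part of root or flower tissue in the defensin values was not tested.

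The choice of background model set how far the defensin falls reached. In the values above, spots whose local background the scanner software flagged as uneven (25 to 94 per array) stayed out of the background model. On array 3 the lowest difference of signal and local background among them was -50222.5 in green. With all spots kept in the model, a setting added after the data were seen, PDF1.2a (-0.89, limma adjusted p = 0.0712) and PDF1.2b (-1.23, adjusted p = 0.0751) no longer passed. In that setting PDF1.2c was at -1.93, PDF1.3 at -1.93 and PDF1.4 at -3.04, and these passed, as did PDF2.1 at 0.74. With an offset of 16 as well, PDF1.2c (-2.13) and PDF1.3 (-2.15) were lost too, and PDF1.4 (-3.28) and PDF2.1 (0.78) passed. In the other 14 settings all 6 calls held, except that PDF1.2a and PDF1.2b could not be tested where both channels had to be above background. With the authors' deposited value table turned to the dye labels, PDF1.2a was at -4.23, -2.36, -3.77 and -2.71 on arrays 1 to 4 and PDF1.4 at -3.35, -3.62, -5.28 and -5.46.

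**Figure D4:**
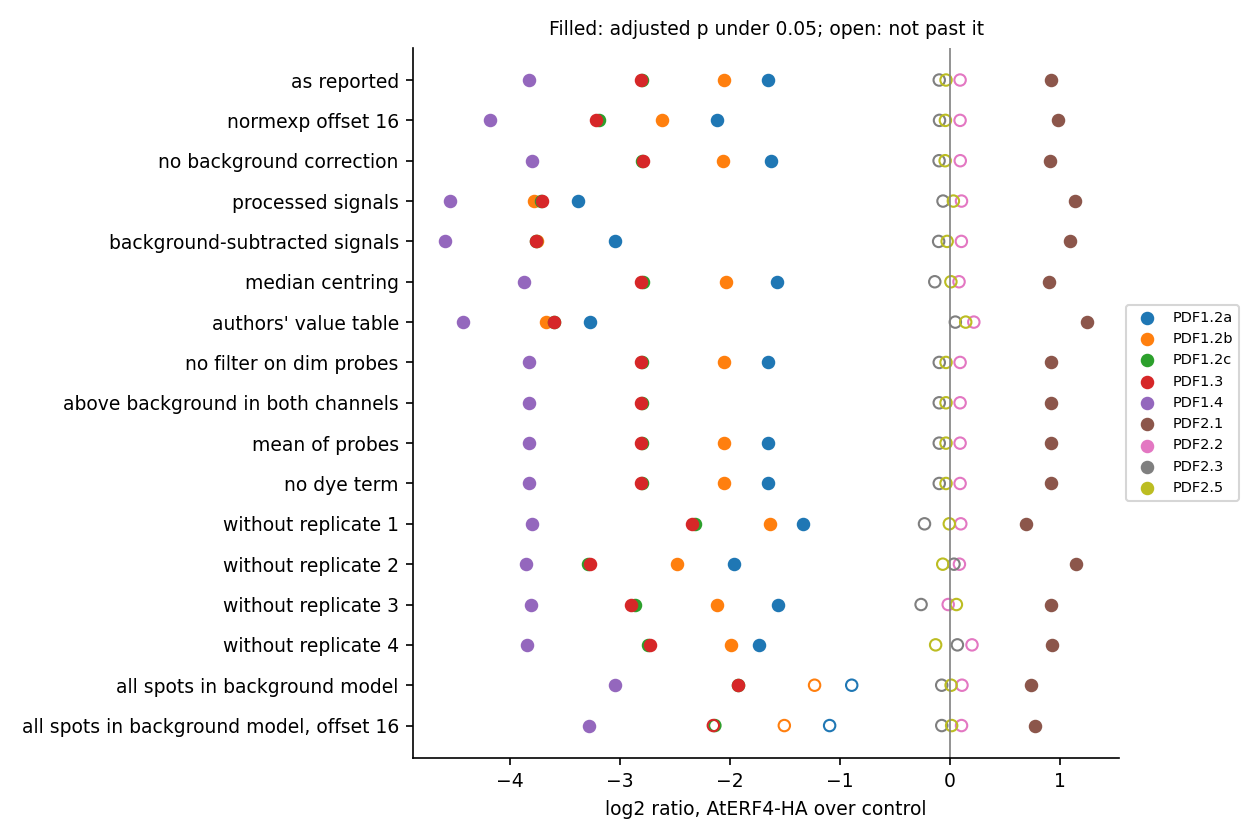
Fitted log2 ratio of AtERF4-HA over control (horizontal axis) of the 9 tested defensin genes under each processing setting (rows), filled where the limma adjusted p was under 0.05 and open otherwise. PDF1.2c lies mostly beneath PDF1.3. The PDF1 genes lie below 0 and PDF2.1 above 0 in every setting, and PDF1.2a ranges from -3.38 to -0.89.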

How the data were processed

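Spot intensity in Cy3 (green) and Cy5 (red) was read from the deposited scanner files. The submitters' processing notes name Agilent Feature Extraction 9.1.3.1 as the software. These files also hold its log10 ratio of red over green and, per the file headers, flags for spots (other values), such as well above background. The authors' deposited value table holds natural log ratios, by a slope of -0.69 to -0.70 in each column against the log2 ratio of the labels; its making is not stated. The members and gene lists were chosen with earlier results of these data known. Named genes are all members, list genes past the threshold or of a role bearing on PDF1.2, flanking genes and the 5 nearest by likeness.

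Spots with uneven local background were left out, then normexp (offset 50) and loess were run in limma 3.58.1 under R 4.3.3. This exclusion was decided after the data, the member values included, were seen: with all spots, the fitted background mean on array 3 was -443 in green and -625 in red, and without them it was 3.98 and -18.9. Outlier spots and control spots were dropped. Probes entered the test when flagged well above background in all 4 channels of 1 genotype or the other, and the brightest stood for its gene. Ratios were fitted with lmFit and eBayes to genotype and dye terms (2 residual degrees of freedom, prior 4.05), and adjusted by Benjamini-Hochberg over 19476 genes, of which 149 had 3 arrays. Members had 4 arrays, and no spot of theirs was saturated (0). Errors are SE of this fit, taken after the dye term. The fit was also run on simulated data in which few genes were changed, unlike these data, so that run does not vouch for the calls made here. Of the array's 25665 genes, 25449 were matched by locus to the RefSeq table. All arrays lay on 1 slide, and their number limits the precision. No sequence or coordinate is printed, since the sources used here hold no sequence and do not name the array's build.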

Additional observations from a re-analysis of the deposited data

Results flagged for a closer look

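Of 47 genes with a test among the defensins, their regulators and ERF4, 5 had 1 array far from the other 3, where chance gives about 1 in 20. Array 2 lay nearest to 0 for PDF1.2b (-0.81, next -2.33), PDF1.2c (-1.30, next -3.21) and PDF1.3 (-1.36, next -3.15), copies whose probes may read the same transcripts. JAZ3 was at -0.081 on array 3, with the next array at 0.41. CHI-B was at 2.14 on array 4, with the next at 1.08.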

How the results depend on the processing

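Of 16 alternatives, the 2 with uneven spots kept in the background model were added after the data were seen. Under the other 14, the calls of PDF1.2a, PDF1.2b, PDF1.2c, PDF1.3, PDF1.4 and PDF2.1 held, except that PDF1.2a and PDF1.2b could not be tested where both channels had to be above background on all arrays. With an array left out, PDF1.2a ranged from -1.96 to -1.34, PDF1.4 from -3.85 to -3.80 and PDF2.1 from 0.69 to 1.15, all past the threshold, while all genes called ranged from 6168 to 8100 and regulators from 18 to 24. With uneven spots kept in the background model, 4983 genes and 15 regulators were called in place of 9089 and 23. With offset 16 as well, 4196 genes, 14 regulators and 2 of 9 members (PDF1.4 and PDF2.1) were called, and PDF1.2c (adjusted p = 0.0561) and PDF1.3 (0.0602) were lost. PDF1.2a moved from -1.65 to -3.38 with processed signals, -3.27 with the authors' value table and -3.04 with background-subtracted signals. Of all calls, 4161 were higher and 4928 lower, against 5029 and 3919 with processed signals and 7879 and 3061 with the value table, which moved the median of all genes from -0.011 to 0.16. Over 590 regulator values, 542 kept their side of the threshold, 39 lost it and 9 gained it. The fit is itself paired, since it uses ratios within each replicate's array, which leaves no further block to add. Slide as a block was not run, as there was 1 slide.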
